A study of Rattus norvegicus with 8 samples.

Results

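Complement and coagulation are the protease cascades of blood plasma, and hepatocytes make most of their proteins. In complement, lectins and antibody-bound C1 activate proteases that build convertases, the convertases cleave C3, and the terminal components C5 to C9 assemble a pore in the target membrane. In coagulation, the contact and tissue factor branches activate vitamin K-dependent zymogens that end in thrombin, which turns fibrinogen into fibrin, while serpins and the protein C system restrain the cascade and plasmin dissolves the clot. The messenger RNAs of 43 such factors were examined here: 20 of complement with its soluble regulators, 13 of coagulation, and 10 inhibitors and proteins of fibrinolysis. The genes were chosen by name, and every array probe whose transcript accession maps to 1 of these genes in RefSeq was taken. Probes were found for 37 genes, with 41 probes in all. C5, C8g, F11, F5, F13b and Proz had no matched probe and were not analysed here. The 37 genes were tested among 15200 genes and features, and all 37 were well above background in the liver channel on all 8 arrays.

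The liver RNA came from adult male Sprague-Dawley rats. The control group ate plain control diet, and the PFOS group ate food that held potassium perfluorooctanesulfonate (PFOS), a fluorinated surfactant, at 50 mg per kg of diet, both for 28 days. Each group held 4 rats, and each rat had its own two-colour array, with liver RNA in the Cy5 channel and the same commercial rat reference RNA in the Cy3 channel. No dyes were swapped, and each probe's measure is the log2 ratio of Cy5 over Cy3. A log2 change is the PFOS mean minus the control mean. A gene is called changed where limma's adjusted p (Benjamini-Hochberg over all 15200) is below 0.05. The median Cy5 brightness per array was 116 to 160 units over a local background of 71 to 75 units. Arrays of 1 group correlated at 0.973 to 0.984, and arrays of different groups at 0.958 to 0.974. The peroxisome proliferator targets Acot1 and Cyp4a1 rose, by 6.63 and 0.72 on the log2 scale (limma adjusted p = 4.3e-07 and 0.0191), while albumin, Alb, had a change of -0.12 (SE 0.12, adjusted p = 0.633). None of the 12 hepatocyte markers was called in the ratio or in Cy5, beside 3.99% and 4.69% of all features. Their summed log2 Cy5 signal was 19.74 to 19.88 in control and 19.76 to 19.85 in PFOS livers. Such a sum, here and below, weighs the brightest markers most, in this list Ttr, Alb and Apoa2. Single hepatocyte markers had changes of both signs. In the ratio they ran from -0.47 to 0.84, with 8 of 12 below 0 (of all features, 52.3%), and in Cy5 from -0.47 to 0.96. In whole liver, fewer cells of a type and less RNA per cell cannot be told apart.

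The promoters of 4 genes are shown because these genes carry the results: the 3 complement genes that fell in the liver channel and have an entry in the promoter table (C8a, C8b, Mbl1), and Fgb, a fibrinogen gene whose signal did not fall. Each runs from 250 bases before to 50 after the annotated start, in the direction of transcription, from RefSeq on the GRCr8 assembly. Capitals mark 2 letter patterns searched on both strands: TTGCNNAA (a form of the C/EBP core) and TTCNNNGAA (the STAT element of the acute phase response).
C8a (chr5:124866582-124866881, minus strand): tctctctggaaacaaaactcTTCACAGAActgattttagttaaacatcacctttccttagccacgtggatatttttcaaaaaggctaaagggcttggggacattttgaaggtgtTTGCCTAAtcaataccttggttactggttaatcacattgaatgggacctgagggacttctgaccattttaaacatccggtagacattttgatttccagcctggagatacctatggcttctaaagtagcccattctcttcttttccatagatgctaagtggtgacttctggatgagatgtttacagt
C8b (chr5:124763864-124764163, plus strand): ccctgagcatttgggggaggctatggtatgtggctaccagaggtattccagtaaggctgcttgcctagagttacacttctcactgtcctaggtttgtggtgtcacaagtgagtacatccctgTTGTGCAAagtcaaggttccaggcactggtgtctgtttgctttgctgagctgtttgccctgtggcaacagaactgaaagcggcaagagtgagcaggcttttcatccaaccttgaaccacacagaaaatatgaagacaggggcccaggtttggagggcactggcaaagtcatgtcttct
Mbl1 (chr16:17062982-17063281, plus strand): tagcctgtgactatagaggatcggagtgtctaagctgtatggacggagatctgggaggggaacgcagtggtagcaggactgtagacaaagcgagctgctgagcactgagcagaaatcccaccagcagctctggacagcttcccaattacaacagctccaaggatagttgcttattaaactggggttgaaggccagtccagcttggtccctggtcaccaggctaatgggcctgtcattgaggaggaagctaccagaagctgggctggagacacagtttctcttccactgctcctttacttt
Fgb (chr2:170700826-170701125, minus strand): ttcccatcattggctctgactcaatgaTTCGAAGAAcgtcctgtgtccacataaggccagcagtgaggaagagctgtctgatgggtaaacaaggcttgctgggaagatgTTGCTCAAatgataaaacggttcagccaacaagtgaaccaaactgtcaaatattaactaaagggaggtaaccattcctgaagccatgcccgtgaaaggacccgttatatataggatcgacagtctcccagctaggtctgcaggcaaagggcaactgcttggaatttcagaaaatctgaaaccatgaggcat
The C8a and Fgb windows each hold both patterns, the C8b window holds only TTGCNNAA, and the Mbl1 window holds neither. Of the 34 listed genes with an entry, 13 hold TTGCNNAA (38.2%, against 10.6% of all 33469 windows) and 7 hold TTCNNNGAA (20.6% against 8.87%). No listed gene holds the direct repeat that PPAR binds, a pair of AGGTCA letters with 1 base between them, and 0.0538% of all windows do. The shares for TTGCNNAA and TTCNNNGAA were higher among these plasma protein genes, but those shares count genes and the shares beside them count windows. C8a and Fgb hold both patterns. In the ratio C8a was called lower and Fgb was not called, and a link between the patterns and the changes was not tested. A match of letters describes the window and does not show that a factor binds there. For PPAR only the exact repeat given above was searched, and only in these windows. Other forms of the repeat and other positions were not searched. Only 18 of all 33469 windows hold the exact repeat, so its absence from the windows of 34 genes was likely beforehand. Control of the listed genes by PPAR was not tested. Masp2, C1s, C2, Cfb, C8g, C9, Serpind1, Serpina10 and Cpb2 are not part of these counts.

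In the log2 ratio few of these genes differed between the groups, and the liver channel alone, given further below, had more calls. Of the 37 genes, 1 was called in the log2 ratio, the pore component C8a, which was lower in PFOS livers, and none was called higher. That is 2.7% of the list, against 3.99% of all genes and features tested (2.14% lower and 1.84% higher). At an unadjusted p below 0.05, 6 genes were lower (16.2%, against 10.9% of all features) and 0 were higher (against 9.01%). They were C8a, Serpind1, Mbl1, Cfi, C6 and Kng1. In 3 of the 37, C8a, Cfi and Serpind1, all PFOS arrays lay below all control arrays (8.11%, against 6.89% of all features), and in no gene did they all lie above (of all features, 12.8% did not overlap, and 5.91% lay above). The median log2 change of the 37 was -0.10, with a range of -0.62 to 0.32, beside -0.01 for all features. It was below 0 for 25 of the 37 (67.6%, against 52.3%).

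**Figure D1:**
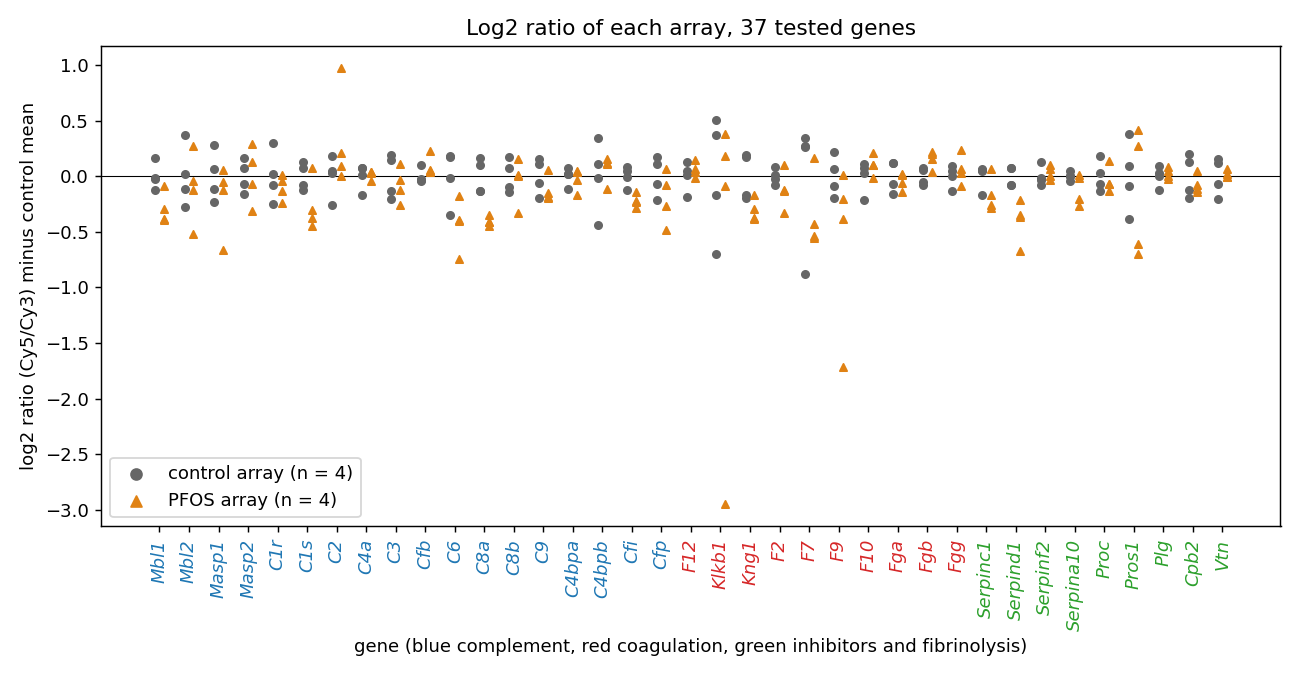
Log2 ratio of Cy5 over Cy3 of each array minus the control mean of the same gene, for the 37 tested genes in the order of their roles, with control arrays as grey circles and PFOS arrays as orange triangles (4 each). Most genes stayed near 0 in both groups, the PFOS arrays of C8a, Cfi and Serpind1 all lie below the control arrays, and single arrays stand apart for Klkb1, F9, F7 and C2.

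The median log2 change was -0.10 for the 18 complement genes tested, -0.08 for the 10 coagulation genes and -0.07 for the 9 inhibitors and fibrinolysis genes. These signs rest on the processing: with signals as the scanner software processed them the complement and coagulation medians were 0.05 and 0.01, and with scaling between arrays all 3 were positive, at 0.10, 0.12 and 0.13. No test compared the groups of factors. The 95% interval of the change lay within 1.5-fold in both directions for 29 of the 37 genes (78.4%, against 78.8% of all features) and within 2-fold for 35 (94.6%, against 93.7%). Klkb1 and F9 had the 2 wider intervals.

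**Figure D2:**
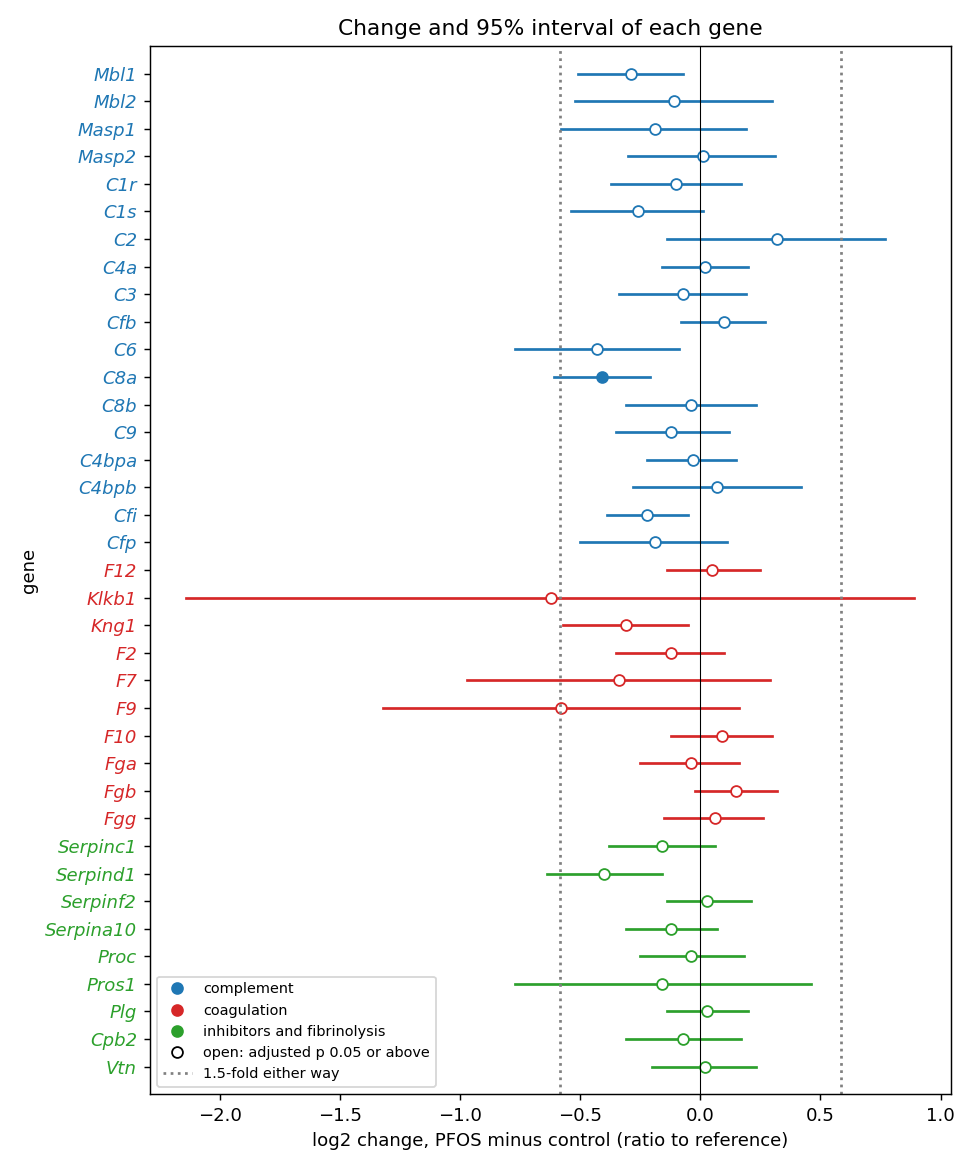
Log2 change (PFOS minus control, horizontal axis) with its 95% interval from limma for each of the 37 genes, coloured by group of factors, with dotted lines at 1.5-fold. C8a alone is filled, at -0.41 (-0.61 to -0.21), and Klkb1 has the widest interval, from -2.14 to 0.89.

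Among the terminal components, which form the membrane pore, all 4 genes tested had a log2 change below 0 (of all features, 52.3%). Their median was -0.26. C8a encodes the alpha chain of C8. Its log2 ratios were 7.28, 7.21, 6.98 and 6.98 on the control arrays and 6.70, 6.70, 6.76 and 6.66 on the PFOS arrays. All PFOS values lay below all control values. The means were 7.11 ± 0.15 and 6.70 ± 0.04 (SD, n = 4 each), a change of -0.41 (SE 0.09, 1.33-fold lower, limma adjusted p = 0.0405). The call was close to the threshold: it was made in 8 of 26 other settings of the ratio, and leaving out any array other than control 4 ended it, with changes of -0.45 to -0.35. The arrays of slide row 1 gave -0.54 and those of row 2 gave -0.27. A second, dimmer C8a probe gave -0.44 (SE 0.17) but was not called (limma adjusted p = 0.197).

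C6, which binds next to C5b in the pore, had log2 ratios of 8.86, 8.87, 8.34 and 8.67 in control and 8.51, 7.94, 8.28 and 8.29 in PFOS livers. The groups overlapped through control 3, and the change of -0.43 (SE 0.15) was not called (limma adjusted p = 0.165). C8b, the beta chain of C8, had ratios of 6.39, 6.66, 6.35 and 6.56 in control and 6.5, 6.16, 6.49 and 6.64 in PFOS livers, which overlap (-0.04, SE 0.12). C9, which polymerises into the ring of the pore, had a change of -0.12 (SE 0.10).

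None of the lectins, their proteases or the proteases of C1 was called in the ratio. Mbl1, a mannose-binding lectin that recognises microbial sugars, had log2 ratios of 7.69, 7.88, 7.59 and 7.70 in control and 7.63, 7.33, 7.42 and 7.32 in PFOS livers. PFOS 1 lay among the controls, and the other 3 PFOS arrays lay below all of them. The change was -0.29 (SE 0.10, limma adjusted p = 0.145). The second lectin, Mbl2, had -0.11 (SE 0.18). The lectin-associated protease Masp2 had 0.01 (SE 0.14), and Masp1 had -0.19 (SE 0.17) on its brightest probe and -0.09 and -0.39 on its other probes, none of them called. The proteases of C1 had changes of -0.10 (C1r, SE 0.12) and -0.26 (C1s, SE 0.12, limma adjusted p = 0.273).

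The convertase components had a median change of 0.06. C3, the central component, had -0.07 (SE 0.12), with ratios of 6.44 to 6.83 in control and 6.38 to 6.75 in PFOS livers. Before outlier spots were dropped, the mean Cy3 brightness of its 2 spots on PFOS 2 was 122424 units, against 6258.5 to 10792.8 on the other arrays. Over all 8 arrays 1 spot of this probe was marked as an outlier. Across the other settings the C3 change ran from -1.0 to 0.11, without a call. C4a had 0.02 (SE 0.08), and reads as uncertain because its probe may also bind the closely related C4 copy. Cfb, the protease of the alternative pathway, had 0.10 (SE 0.08). C2 had the largest positive change of the 37, 0.32 (SE 0.20), which rested on PFOS 2. Its log2 ratio there was 5.00, against 3.77 to 4.23 on the other arrays. On that array the Cy3 signal of the probe was 9.0 on the log2 scale, against 10.07 to 10.18 elsewhere, while the Cy5 signal of 12.12 lay within the range of the others (12.08 to 12.50). Without PFOS 2 the change was 0.10, and a second C2 probe gave 0.02 (SE 0.10).

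Of the soluble regulators, Cfi, the protease that inactivates C3b and C4b, had log2 ratios of 6.19, 6.13, 6.22 and 6.02 in control and 5.85, 6.0, 5.91 and 5.92 in PFOS livers. All PFOS values lay below all control values, although the nearest arrays almost touched. The change of -0.22 (SE 0.08) was not called (limma adjusted p = 0.161). The chains of C4b-binding protein, C4bpa and C4bpb, had changes of -0.03 (SE 0.08) and 0.07 (SE 0.16). Cfp, properdin, which stabilises the alternative convertase, had -0.19 (SE 0.14).

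No coagulation gene was called in the log2 ratio, beside 3.99% of all features. At an unadjusted p below 0.05, 1 of 10 was lower, beside 10.9% of all features. That gene, Kng1, encodes kininogen, the cofactor of the contact system. Its ratios were 8.00, 8.36, 7.97 and 8.34 in control and 8.00, 7.79, 7.78 and 7.87 in PFOS livers. PFOS 1 overlapped the controls, and the change was -0.31 (SE 0.11, limma adjusted p = 0.181). The rat has other kininogen genes of similar sequence, so that this probe's signal may not be of Kng1 alone. F12, the zymogen that starts the contact branch, had a change of 0.05 (SE 0.09).

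Klkb1, plasma prekallikrein, varied more between rats than any other member. Its log2 ratios were 6.53, 7.60, 7.74 and 7.06 in control and 4.28, 7.14, 7.41 and 7.61 in PFOS livers. Only PFOS 1 was low, and the other 3 PFOS arrays lay within the control range. Both spots of the probe were dim in Cy5 on that array, at 810 and 723 units, against 2756 to 8489 units on the other arrays. Their Cy3 brightness, 81 and 75 units, was close to that of the other arrays (78.5 to 100 units). The change was -0.62 (SE 0.67, limma adjusted p = 0.65) with PFOS 1 and 0.15 (SE 0.28) without it.

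The vitamin K-dependent zymogens gave 2 precise and 2 imprecise values. F2, prothrombin, had ratios of 5.86 to 6.02 in control and 5.60 to 6.04 in PFOS livers, a change of -0.12 (SE 0.10, limma adjusted p = 0.533). F10, the protease of prothrombinase, had 0.09 (SE 0.09). F9 had ratios of 7.01, 7.16, 7.31 and 6.90 in control and 7.11, 5.38, 6.89 and 6.71 in PFOS livers. The low value belongs to PFOS 2, and F9 has a single spot per array. The change was -0.58 (SE 0.33, limma adjusted p = 0.361), was -0.20 (SE 0.13) without PFOS 2, and was 0.33 with signals as processed by the scanner software. F7, the protease that pairs with tissue factor, had -0.34 (SE 0.28), with control 4 at 3.85 and the other controls at 4.99 to 5.07. F7 and F9 were the only members not above background in Cy3 on all arrays (6 of 8 each), so that their ratios divide by a dim reference.

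None of the 3 fibrinogen chains was called. Fgb had log2 ratios of 8.08, 8.10, 7.95 and 7.97 in control and 8.22, 8.24, 8.06 and 8.18 in PFOS livers. Of the PFOS arrays only PFOS 3 lay within the control range, and the change of 0.15 (SE 0.08) was not called (limma adjusted p = 0.314). Fga and Fgg had changes of -0.04 (SE 0.09) and 0.06 (SE 0.09), with intervals of -0.25 to 0.16 and -0.15 to 0.26.

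Among the inhibitors, Serpind1, heparin cofactor II, a thrombin inhibitor, differed most. Its log2 ratios were 8.57, 8.72, 8.57 and 8.72 in control and 8.43, 7.97, 8.30 and 8.28 in PFOS livers. The groups did not overlap, and PFOS 2 was the lowest. The change was -0.40 (SE 0.11) but was not called in the ratio (limma adjusted p = 0.0776). Serpinc1, antithrombin, had -0.16 (SE 0.10, limma adjusted p = 0.402), and Serpina10, which inhibits factor X with protein Z, had -0.12 (SE 0.09, adjusted p = 0.48). Serpinf2, the inhibitor of plasmin, had 0.03 (SE 0.08). In the protein C system, Proc, protein C, had -0.04 (SE 0.10) and Pros1, its cofactor protein S, had -0.16 (SE 0.27), with both groups spread over more than any difference between them (1.82 to 2.59 and 1.51 to 2.62). Of the fibrinolysis genes, Plg, plasminogen, had 0.03 (SE 0.08), Cpb2, which trims fibrin against plasmin, had -0.07 (SE 0.11, adjusted p = 0.753) and Vtn, vitronectin, had 0.02 (SE 0.09).

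The liver channel alone gave more calls. With the Cy5 signal quantile normalized between arrays, 4 of the 37 genes fell (10.8%, against 4.69% of all features called, 2.47% lower and 2.22% higher): C8a, C8b, Mbl1 and Serpind1. None was called higher. At an unadjusted p below 0.05, 12 were lower (32.4%, against 11.3% of all features) and 0 were higher (against 9.59%). The median Cy5 change of the 37 was -0.16, and 29 were below 0 (78.4%, against 52.4%). The PFOS arrays lay below all control arrays for 8 genes (21.6%, against 7.34%): the 4 called genes, Cfi, F12, F10 and Serpina10. The terminal components had a Cy5 median of -0.44. All 4 calls ended when the arrays were centred on their medians in place of quantile normalization.

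C8b showed the greatest Cy5 fall among the called genes. Its log2 Cy5 signal was 13.46, 13.25, 13.37 and 13.40 in control and 12.88, 12.88, 12.79 and 12.96 in PFOS livers. The groups were well apart, and the change was -0.49 (SE 0.07, 1.4-fold lower, limma adjusted p = 0.00563). For C8a the signal was 14.43, 14.28, 14.21 and 14.36 against 13.84, 13.92, 13.87 and 13.85, a change of -0.45 (SE 0.07, adjusted p = 0.00774). The second C8a probe had a Cy5 change of -0.20 (SE 0.13, adjusted p = 0.415), and its groups overlapped (8.54 to 8.99 in control and 8.39 to 8.83 in PFOS livers). For Mbl1 the Cy5 signal was 13.17, 13.11, 13.24 and 13.25 against 12.66, 12.87, 12.73 and 12.62, a change of -0.47 (SE 0.08, adjusted p = 0.00973). For Serpind1 it was 13.89, 13.90, 13.90 and 14.05 against 13.57, 13.52, 13.49 and 13.51, a change of -0.41 (SE 0.07, adjusted p = 0.00835). On the probe that stood for each of these 4 genes every PFOS array lay below every control array.

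The Cy3 channel held the same reference RNA on every array. None of the 37 was called there, and 12 of all features were (0.0789%). Even so, 9 of the 37 had lower Cy3 signal in the PFOS arrays at an unadjusted p below 0.05 (24.3%, against 1.49% of all features), and 0 had higher (against 2.12%). They were C8b, F10, Serpind1, Mbl1, F9, C9, Masp1, Serpinf2 and C6. In 5 of these genes all PFOS arrays lay below all control arrays in Cy3 (13.5%, against 1.01%), and 25 of the 37 had a Cy3 change below 0 (67.6%, against 48.5%). C8b had log2 Cy3 values of 8.96, 8.54, 8.92 and 8.72 with control and 8.35, 8.56, 8.26 and 8.28 with PFOS liver RNA on the array, a change of -0.42 (SE 0.10, unadjusted p = 0.00272 and adjusted p = 0.776 by limma). The fall of C8b in Cy5 thus stood beside one of similar size in Cy3, and its ratio changed by -0.04. C8a had a Cy3 change of -0.01 (SE 0.05), and its groups overlapped there. For Serpind1 the Cy3 change was -0.09 (SE 0.03), and for Mbl1 it was -0.25 (SE 0.07). F10 had -0.25 (SE 0.08) in Cy5 and -0.30 (SE 0.08) in Cy3. Cyp4a1, outside the list, rose by 1.64 in Cy3 (limma adjusted p = 2.8e-05) beside 2.56 in Cy5. Why the reference channel moved with the liver channel was not tested.

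**Figure D3:**
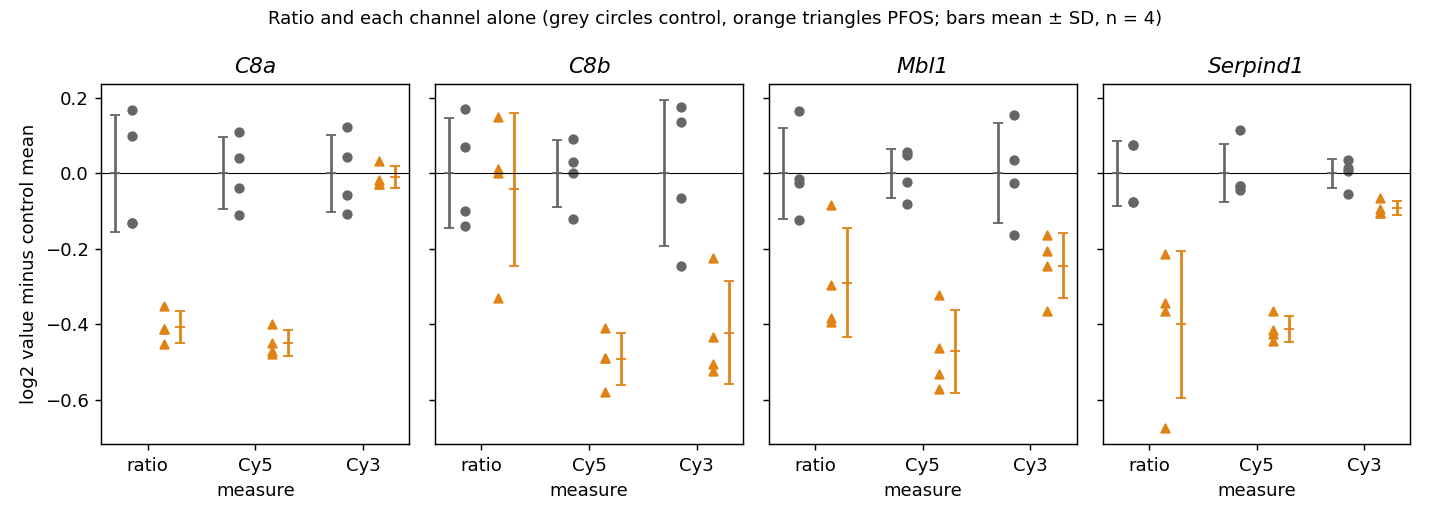
Values of each array minus the control mean of the gene, on the log2 scale, for the ratio, the Cy5 channel and the Cy3 channel of C8a, C8b, Mbl1 and Serpind1, with control as grey circles, PFOS as orange triangles and bars for the mean ± SD (n = 4). C8a is lower in the ratio and in Cy5 and level in Cy3, whereas C8b is lower in both channels and level in the ratio.

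**Figure D4:**
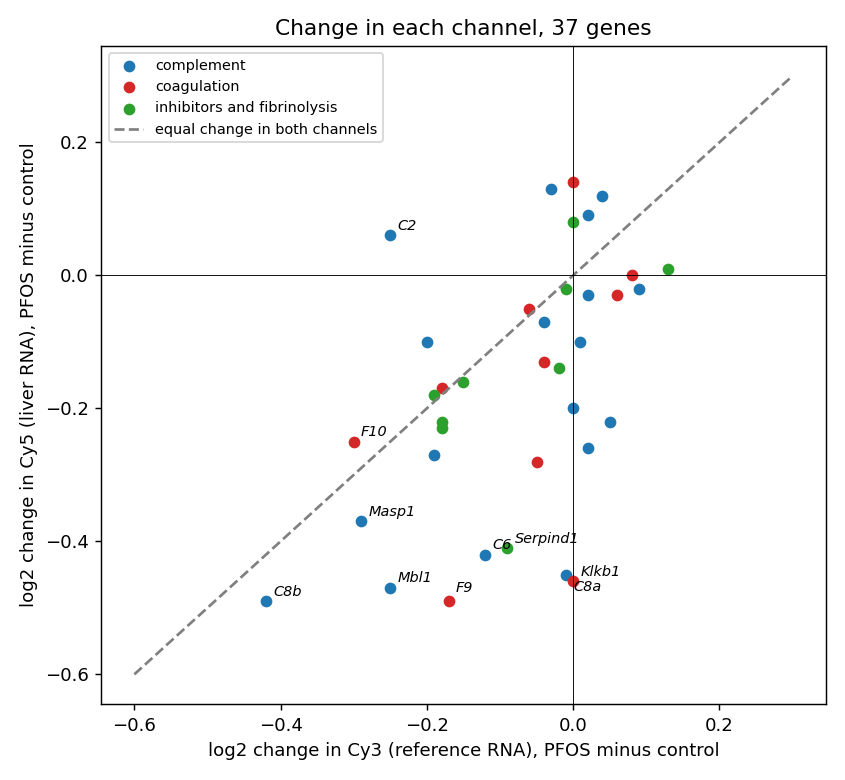
Log2 change in Cy5 (liver RNA, vertical axis) against the log2 change in Cy3 (reference RNA, horizontal axis) for the 37 genes, coloured by group of factors, with a dashed line where both channels change equally. C8b and F10 lie near the dashed line, and C8a lies below it at -0.45 in Cy5 and -0.01 in Cy3.

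Of 65 other genes of these cascades, 46 were tested, and 2 fell in the log2 ratio while none was called higher. Of all features 3.99% were called, 2.14% lower and 1.84% higher. Gas6, a vitamin K-dependent ligand of the TAM receptors related to protein S, had ratios of -0.45, -0.53, -0.53 and -0.79 in control and -1.57, -1.28, -1.36 and -1.26 in PFOS livers. The groups did not overlap, and the change was -0.79 (SE 0.10, limma adjusted p = 0.00455). Vkorc1, the enzyme that recycles vitamin K for the zymogens above, had 3.41, 3.66, 3.01 and 3.62 in control and 2.83, 2.61, 2.38 and 2.90 in PFOS livers. The groups again did not overlap, and the change was -0.74 (SE 0.16, adjusted p = 0.0411). Gas6 was called in 24 of 26 other settings, with changes of -0.93 to -0.65, and Vkorc1 in 11 of 26, with changes of -0.88 to -0.64. Leaving out 1 array ended the Vkorc1 call for each array but control 3 and PFOS 4. Among the 6 vitamin K-dependent members tested (F2, F7, F9, F10, Proc and Pros1) none was called, beside 3.99% of all features. Their median was -0.14. The SE was 0.28 for F7, 0.33 for F9 and 0.27 for Pros1, so that only large changes of these genes could be called. A link between Vkorc1 and these members was not tested.

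The uncalled genes with the smallest p among these others were Habp2, a plasma protease that can activate F7, at -1.0 (SE 0.27, limma adjusted p = 0.0837), Cd46, a membrane regulator of complement, at 0.45 (adjusted p = 0.142), F8, the cofactor of F9, at -0.29 (adjusted p = 0.168), and Fcna, a ficolin, at -0.51 (adjusted p = 0.222). F8 is made mainly by sinusoidal endothelial cells. Of 12 markers of those cells 7 were tested, and none was called in the ratio (of all features, 3.99% were). All 7 were below 0 in the ratio, beside 52.3% of all features, with a median of -0.46. Their summed log2 Cy5 signal was 13.23 to 14.01 in control and 12.83 to 13.31 in PFOS livers. The part of these cells in the F8 value was not tested. In the Cy5 channel alone Gas6 and Vkorc1 also fell, and so did Itih1, a chain of inter-alpha inhibitor (-0.46, adjusted p = 0.0243), and Serpina1, alpha-1 antitrypsin (-0.29, adjusted p = 0.045). These were 4 of the 46 tested, beside 4.69% of all features called in Cy5 (2.47% lower).

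**Figure D5:**
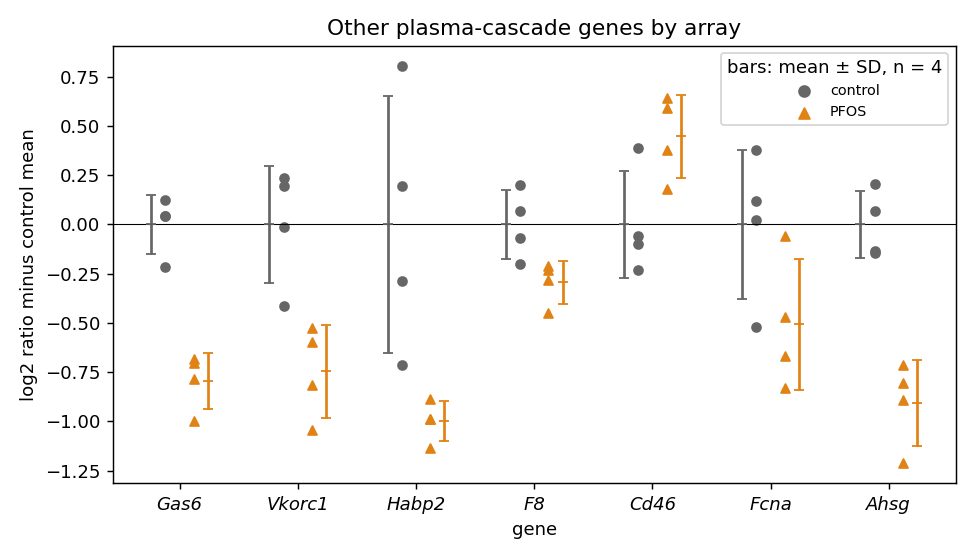
Log2 ratio of each array minus the control mean for 6 other genes of the cascades and for Ahsg, with control as grey circles, PFOS as orange triangles and bars for the mean ± SD (n = 4). Gas6, Vkorc1 and Ahsg were called, and the PFOS arrays of Habp2 and F8 also lie below all control arrays without a call.

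Many members are also induced or repressed in the acute phase response. Of 16 acute phase genes tested, 1 was called in the ratio, beside 3.99% of all features. That gene, Ahsg, fetuin-A, a negative acute phase protein, fell by 0.91 on the log2 scale (SE 0.13, limma adjusted p = 0.00596). Its ratios were 7.22 to 7.57 in control and 6.15 to 6.65 in PFOS livers. Ttr, transthyretin, had -0.45 (adjusted p = 0.113), and Hp, haptoglobin, had -0.30 (adjusted p = 0.292). The Ttr change was 0.04 in Cy5 and 0.52 in Cy3, so its lower ratio stood beside a higher reference signal and a level liver signal. Hp had -0.11 in Cy5 and 0.20 in Cy3. Crp had 0.36 in the ratio (adjusted p = 0.154). In Cy5 alone Crp rose by 0.87 (adjusted p = 0.00113), beside a change of 0.40 in Cy3. No liver transcription factor of the 20 tested was called in the ratio or in Cy5, beside 3.99% and 4.69% of all features. The median SE of these 20 in the ratio was 0.22, against 0.11 for all features, so that the absence of calls says little. Among the factors with the smallest p were Cebpb at 0.86 (SE 0.22, adjusted p = 0.0719) and Nr1i3, the receptor CAR, at 1.40 (SE 0.46, adjusted p = 0.132).

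Markers of other cells in liver or blood gave no calls, but several lists were mostly below 0. None of the 11 macrophage, 11 stellate cell, 8 lymphocyte, 2 neutrophil, 4 platelet, 5 red cell and 5 cholangiocyte markers tested was called in the ratio or in Cy5. Of all features 3.99% were called in the ratio and 4.69% in Cy5, so that the absence of calls in lists this short says little. The summed Cy5 signal of each list overlapped between the groups. The log2 ratio change was below 0 for 10 of 11 macrophage markers (median -0.15), 5 of 5 red cell markers (-0.47), 4 of 4 platelet markers (-0.16) and 2 of 2 neutrophil markers (-0.36). It was below 0 for 7 of 11 stellate cell markers (median -0.11), 5 of 8 lymphocyte markers (-0.07) and 1 of 5 cholangiocyte markers (0.10). In Cy5 alone, all 11 macrophage markers were below 0, with a median of -0.26, and so were all 5 red cell markers, with a median of -0.41. Of all features, 52.3% were below 0 in the ratio and 52.4% in Cy5. The part of these cell types in the values of the listed genes was not tested. The smallest adjusted p values among these markers belonged to Epcam, a cholangiocyte marker, at 0.66 (adjusted p = 0.082), and to Col3a1, a stellate cell collagen, at -0.48 (adjusted p = 0.09). All PFOS ratios of Col3a1 (-2.04 to -1.85) lay below all control ratios (-1.83 to -1.21). Rgs5, another stellate cell marker, named after its values were seen, had Cy5 signals of 7.83 to 8.53 in PFOS livers, all above the controls at 7.63 to 7.81, without a call. For macrophages, Adgre1 had -0.78 (adjusted p = 0.344), for neutrophils S100a9 had -0.46 (adjusted p = 0.371), for platelets Gp9 had -0.23 (adjusted p = 0.338), and for red cells Hbb had -0.36 (adjusted p = 0.346), all by limma.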

How the data were processed

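Liver messenger RNA of 4 control and 4 PFOS rats was measured on Agilent SurePrint G3 rat arrays, all on 1 slide. The labels name separate animals. The authors deposited intensity values of each spot, as median signals and local backgrounds on a linear scale. Per the file headers, they came from Agilent Feature Extraction, version 10.7.3.1, which the submitters' processing notes name as well. The deposited value table of the authors holds log2 ratios, and its method is not given in the sources used here. Set against the log2 ratio without background subtraction, its columns had correlations of 0.995 to 0.997, which fixed its scale and direction. How it was centred is unknown (medians -0.061 to -0.048).

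Background correction used normexp (offset 50), and loess normalized each array with weight 0 for control spots. Between 733 and 991 outlier spots per array were dropped, no saturated spot was marked, and spots of a probe were averaged. The design had named mean signals, but the files hold medians, which were used. A probe was kept if well above background in Cy5 on 4 or more of the 8 arrays (16952 of 30367). Where a gene had several probes, the brightest in mean Cy5 signal was taken, and 15200 genes and features were tested. Probes were named through RefSeq accessions on GRCr8. Each channel alone was quantile normalized. The groups were compared in R 4.3.3 by limma (version 3.58.1, with lmFit and eBayes), two-sided, with Benjamini-Hochberg adjustment, and the steps were tested on simulated data. With 4 arrays a group, precision is limited by that number, and ratios of dim probes depend on the offset.

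The listed genes and the other lists were chosen with earlier results of these data known. The text gives every listed gene, and gives array values for those called or with the smallest p in their group of factors. Of other lists it names called genes and those with the smallest uncalled p, and Acot1, Cyp4a1 and Alb whatever their p. Klkb1, F7, C2 and C3, which have an array that stands apart, were detailed after their values were seen, and the promoter patterns were chosen then too. The alternatives were other background corrections, normalizations, filters, probe rules, variance models, slide positions and each array left out. Some results are withheld for evaluation and are not reported here.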

Additional observations from a re-analysis of the deposited data

Results flagged for a closer look

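In 6 of 74 groups of 4 arrays (8.11%) 1 array of a member lay far from the other 3 for the group's range, by Dixon's 95% criterion, which chance passes in about 1 group of 20. The log2 ratio of Klkb1 was 4.28 on PFOS 1, and both its spots were dim in Cy5 there. F7 had 3.85 on control 4, where its Cy5 signal was also lowest; without that array its change was -0.63 (SE 0.17, limma adjusted p = 0.109). C4bpb had 9.90 on PFOS 2, below the other PFOS arrays at 10.13 to 10.17. Serpinc1 had 9.30 on control 3, below the other controls at 9.51 to 9.53. PFOS 1 was the highest of its group for Cfb, at 8.84, and for C9, at 8.82. Dixon's value is the gap of the outermost array over the range. For Cfb, C9, C4bpb and Serpinc1 it was 0.88, 0.83, 0.87 and 0.93 in the ratio, but 0.68, 0.07, 0.65 and 0.30 in Cy5. Of these genes only Serpinc1 had the same outermost array in Cy5.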

How the results depend on the processing

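The count of members called in the log2 ratio was 1 and was C8a wherever it stayed at 1: with the authors' value table, with each of 3 other filters on dim probes, with every probe fitted on its own, with array weights and with slide row as a block. It was 0 without background subtraction, with normexp at offset 0, with processed signals, with median centring, with scaling between arrays, with a minimum of 1.5-fold, with the mean of a gene's probes, with the trend and robust variance model, with slide column as a block, and in slide row 1 or 2 alone. Leaving out 1 array gave 0 to 1. The C8a change ranged from -0.54 to -0.21 and kept its sign in all 26 of these settings, and no other member was called in any of them. The scaling setting multiplies each array's ratios, which shifts members with high ratios together: the complement, coagulation and inhibitor medians became 0.10, 0.12 and 0.13, and the complement median was 0.05 with processed signals. Over the 962 member values of these 26 ratio settings, 80 turned sign or rounded to 0, in 26 members, none with a call. In Cy5 alone the count was 0 with median centring, 4 with each other processing, and 4 to 5 with 1 array left out. In Cy3 alone it was 0 in each setting. Gas6, Vkorc1 and Ahsg, tried after their values were seen, kept a negative sign throughout, and Ahsg was called in 22 of 26 settings. No paired analysis was possible because the labels give animal numbers that no control and PFOS rat share. Members with a dim Cy3 signal are limited by the reference channel. F7 and F9 were the dimmest there, at 38.5 to 61 units. Mbl2, Masp2, C6, Klkb1 and Pros1 were also dim, at 62.8 to 99.2 units, though above background on all 8 arrays.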
